A study of Homo sapiens with 7 samples.

Results

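Trimethylation of histone H3 at lysine 4 (H3K4me3) was mapped by ChIP-seq in HCT116 cells, and the intervals described here are those that lie away from the main start sites of protein-coding genes. They were selected on measured values together with the gene annotation. An interval of the deposited H3K4me3 list was taken when it was narrower than 4000 bp, lay more than 5 kb from the transcription start site (TSS) of every protein-coding gene of GENCODE 44 on hg19, and overlapped no H3K27me3 interval. The TSS was that of the canonical transcript, or the 5′ end of the gene where none is annotated. Of 16112 H3K4me3 intervals, 4248 (26.4%) met these conditions, and they are called distal intervals here. The comparison set is the 10941 H3K4me3 intervals (67.9%) within 1 kb of such a coding TSS, called promoter intervals. Neither the width limit nor the H3K27me3 condition was applied to them. Their widths reached 14244 bp, and 465 (4.25%) overlapped H3K27me3.

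HCT116 is an established colorectal carcinoma line. For each antibody, chromatin came from 1 well of 200000 crosslinked cells that was sheared for 6 min in the PIXUL 96-well sonicator, and 1 library was sequenced per mark. Lists for H3K4me3, H3K9Ac, H3K4me1, CTCF, H3K36me3 and H3K27me3 were used, and H3K27Ac was not analysed here. As 1 library stands behind each mark, no difference between samples was tested, and the intervals given with shares are 95% Wilson intervals that cover counting error only.

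A doubt about the H3K27me3 list bears on the choice of intervals. Of its 55270 interval names 0 contain the name of the cell line, whereas every interval name of the other 5 lists does. The label of that library gives HCT116. Without the H3K27me3 condition there would be 4528 distal intervals, 280 more. The shares for the marks, for an annotated TSS and for near-identical copies are given without it in the closing account of alternatives. The CpG-rich and motif shares are given with it only.

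H3K4me3 is laid down around active and poised start sites of genes, coding or not, and is usually weak at enhancers, where H3K4me1 is the typical mark. H3K9Ac accompanies active promoters and enhancers, H3K36me3 lies in the bodies of transcribed genes, and CTCF is the DNA-binding protein at insulators and loop anchors. An H3K4me3 interval away from a canonical coding start can therefore lie at an alternative promoter, at the start of a non-coding RNA, at a repeated element or at no annotated start.

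The letters under a few of these intervals show kinds of sequence that recur among them. The first set shows 3 windows of 60 bases centred on an exact match of the CTCF core motif, in capitals, from distal intervals with no annotated TSS and no near-identical copy that overlapped a CTCF interval. They lie in hg19 at chr6:157695877-157695936 on the minus strand, outside any gene body, and at chr19:45942857-45942916 on the plus strand and chr12:122250028-122250087 on the minus strand, both within a protein-coding gene body. The 3 intervals had H3K4me3 fold enrichments of 17.0, 16 and 10.2 and CTCF fold enrichments of 17.2, 28.7 and 23.6 in that order. The fold enrichment is a linear ratio of the interval to the local background of the peak caller. At these places a strong CTCF interval and an H3K4me3 interval coincide without an annotated start.
CTCF-1: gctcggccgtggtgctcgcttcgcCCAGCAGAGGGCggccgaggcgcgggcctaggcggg
CTCF-2: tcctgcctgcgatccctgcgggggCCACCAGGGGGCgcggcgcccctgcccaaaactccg
CTCF-3: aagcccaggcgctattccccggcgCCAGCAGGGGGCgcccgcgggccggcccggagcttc

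The second set shows 3 windows of 61 bases centred on the AP-1 letters TGANTCA, in capitals. AP-1, the FOS and JUN family of factors, is well known at enhancers of epithelial and carcinoma cells. The windows come from CpG-poor distal intervals with no annotated TSS, at chr22:41048075-41048135, chr11:69527243-69527303 and chr19:2060937-2060997 of hg19, all on the plus strand and all outside the bodies of protein-coding genes. The nearest coding TSS were those of MRTFA at 14.7 kb, FGF19 at 7.55 kb and MKNK2 at 8.13 kb. Their H3K4me3 fold enrichments of 23.3, 17.7 and 16.1 lie well above the median of such intervals.
AP1-1: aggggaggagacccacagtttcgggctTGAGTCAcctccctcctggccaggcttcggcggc
AP1-2: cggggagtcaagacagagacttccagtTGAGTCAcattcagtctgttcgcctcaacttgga
AP1-3: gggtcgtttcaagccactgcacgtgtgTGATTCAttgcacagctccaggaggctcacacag

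The last set shows stretches of 200 bases under strong distal intervals. For VPS9D1 (chr16:89778053-89778252, minus strand), MGAT5 (chr2:134877354-134877553, plus strand) and the lncRNA gene RENO1 (chr17:79319767-79319966, minus strand) they are the bases just before an annotated start, and capitals mark SP, ETS, NRF1, CRE or TATA letters on either strand. For the strongest interval with no annotated TSS (chr17:79455098-79455297, plus strand) they are its centre, and capitals mark SP, ETS or E-box letters. All positions are in hg19. The RENO1 stretch holds 8 matches of its letters, the VPS9D1 stretch 5 and the MGAT5 stretch 1. The centre of the interval with no annotated start holds 1 match, an E-box (CACGTG). Different letters were marked in it, so the counts are not comparable. RENO1, with an H3K4me3 fold enrichment of 42.4, falls outside the rule for named genes and was chosen, like the other windows printed here, after its values were seen.
VPS9D1: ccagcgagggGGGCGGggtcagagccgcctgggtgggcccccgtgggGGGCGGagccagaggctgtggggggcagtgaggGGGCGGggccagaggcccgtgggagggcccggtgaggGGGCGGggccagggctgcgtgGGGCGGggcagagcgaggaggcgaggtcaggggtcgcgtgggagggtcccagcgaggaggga
MGAT5: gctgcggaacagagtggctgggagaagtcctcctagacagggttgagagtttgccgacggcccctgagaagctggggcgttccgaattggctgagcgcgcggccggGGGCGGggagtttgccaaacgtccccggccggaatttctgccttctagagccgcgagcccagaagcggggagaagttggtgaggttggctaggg
RENO1: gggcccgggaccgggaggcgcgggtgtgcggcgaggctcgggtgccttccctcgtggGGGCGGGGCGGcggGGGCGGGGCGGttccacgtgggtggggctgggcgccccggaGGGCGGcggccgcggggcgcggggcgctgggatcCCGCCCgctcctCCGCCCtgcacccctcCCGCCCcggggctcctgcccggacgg
no-start-1: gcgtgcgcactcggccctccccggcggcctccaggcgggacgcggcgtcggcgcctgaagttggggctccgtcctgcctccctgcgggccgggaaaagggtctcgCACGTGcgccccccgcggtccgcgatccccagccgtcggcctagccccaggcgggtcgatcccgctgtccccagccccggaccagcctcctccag

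Distal intervals were narrow and weak beside promoter intervals. Width and distance, which chose them, are given as a description only. Their median width was 894 bp (middle 50%, 522 to 1453 bp), against 1968 bp. The median H3K4me3 fold enrichment was 5.57 (middle 50%, 3.74 to 11.1) and ranged from 1.16 to 63.9, while the middle 50% of promoter intervals lay between 16.1 and 27.4. Distal intervals thus reach promoter levels only in their upper part. Under the stricter limits of the methods (fold enrichment above 5, q below 1e-10), 1861 distal intervals remained (43.8%), where 79.1% of all H3K4me3 intervals and 95.6% of promoter intervals passed. The median distance to a coding TSS was 34750 bp (middle 50%, 15198 to 84393 bp), and together the distal intervals covered 4562 kb.

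Near the distance threshold of the rule the values changed little. The 144 distal intervals at 5 to 6 kb had a median fold enrichment of 5.97, and the 153 intervals just outside, at 4 to 5 kb, one of 5.86. H3K9Ac overlapped 96.5% of the former and all 153 of the latter. The 21 distal intervals from 3500 to under 4000 bp wide had a median fold enrichment of 15.2, and the 4 intervals from 4000 to under 4500 bp wide 14.1. CTCF overlapped 61.9% of the former and none of the 4, a number too small to compare. The 280 intervals left out for H3K27me3 alone had a median fold enrichment of 4.76, and H3K9Ac overlapped 79.6%, H3K4me1 78.6% and CTCF 57.9% of them. They thus had fewer active marks and more CTCF than the distal intervals.

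Genes of known cell types were looked up at their promoters. Of 10 epithelial and colon genes, 6 had an H3K4me3 interval within 1 kb of the canonical TSS: EPCAM (fold enrichment 30.4), CDH1 (25.1), KRT8 (21.8), KRT18 (24.4), KRT19 (28.7) and CDX2 (31.6). Over all protein-coding genes that share was 61.6%, so the count itself was at the background. VIL1, CDH17, GPA33 and LGALS4, genes of intestinal epithelium, had none. Of genes of other cell types, 1 of 8 looked up had an interval, the collagen gene COL1A1 (9.21), and PTPRC, CD3E, COL1A2, ALB, GFAP, MYH6 and HBB had none. Both lists were thus marked in part, the second at 1 gene only.

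The distal intervals divided almost evenly by annotation. An annotated TSS of any gene lay within 1 kb of 2097 distal intervals (49.4%, interval 47.9 to 50.9%), against 84.0% of all H3K4me3 intervals, and 2151 had none. In order of precedence, 852 lay by another transcript of a protein-coding gene, 972 by a lncRNA, 207 by a pseudogene and 66 by another RNA gene. The name "far from coding promoters" therefore holds for canonical starts only: with the TSS of every coding transcript in the rule, 3094 intervals would be left. H3K4me3 was stronger where a coding or lncRNA start was annotated, with medians of 9.73 and 9.15, than at pseudogenes (5.58), other RNA genes (4.39) and places with no annotated start (4.28).

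**Figure D1:**
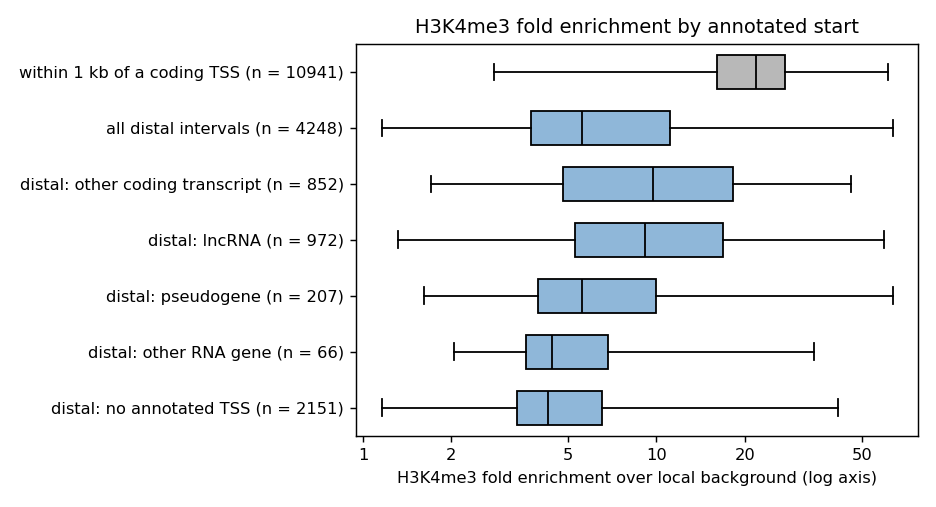
H3K4me3 fold enrichment (log axis) of promoter intervals (grey) and of distal intervals (blue), in all and by the annotated start within 1 kb; boxes show the middle 50% with the median and whiskers the full range. Distal intervals at other coding transcripts (median 9.73) and lncRNA genes (9.15) lie between promoter intervals (21.9) and distal intervals with no annotated start (4.28).

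The 852 distal intervals at other coding transcripts belong to 767 genes. Measured from the canonical TSS, 565 of them (66.3%, interval 63.1 to 69.4%) lay downstream, at a median of 29.1 kb and up to 919 kb. The 287 upstream ones lay at a median of 27.2 kb and up to 506 kb. Most are therefore internal starts. The transcript at the start was protein-coding at 482, of undefined coding sequence at 196, a retained-intron transcript at 136 and a nonsense-mediated decay transcript at 36.

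At 556 of these intervals (65.3%, interval 62.0 to 68.4%) the canonical TSS of the same gene also lay within 1 kb of an H3K4me3 interval, against 61.6% of all protein-coding genes. At the remaining 296 the distal start was the marked one, and the median fold enrichment was 11.6 there, against 8.85 where the canonical start was marked too. Distal starts marked without the canonical one were thus not the weak ones.

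The 5 strongest of these starts belong to genes of differing functions. VPS9D1, which encodes a protein with a VPS9 domain, had the highest fold enrichment of the class, 46.0. Its interval lay 7.69 kb from the canonical TSS, with H3K9Ac at 15.4. ARPC5L, a subunit of the actin-nucleating Arp2/3 complex, followed with 42.3. MGAT5, which adds the branching N-acetylglucosamine of complex N-glycans, had 41.6 at an upstream start 134 kb from the canonical one. NDST1, an enzyme of heparan sulfate synthesis, had 41.3 at a start 22.3 kb upstream. ST3GAL6, a sialyltransferase, had 41.0 at a start 31.1 kb upstream. For MGAT5, NDST1 and ST3GAL6 the canonical start lay by no H3K4me3 interval, so in all 3 the marked start was the upstream one. The VPS9D1, ARPC5L, NDST1 and ST3GAL6 intervals also overlap the body of a lncRNA gene. The transcript at the start has no defined coding sequence for VPS9D1 and MGAT5 and is a retained-intron transcript for ST3GAL6.

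Coding genes well known for having several promoters were looked up as a list. Of 16 such genes, 4 had a distal interval at an annotated start, 10 had H3K4me3 that did not meet the rule, and TP63 and LEF1 had none. Of all protein-coding genes 3.83% had a distal interval at an annotated start, 60.8% had only H3K4me3 outside the rule and 35.4% had none. The cytoskeletal linker genes MACF1 and DST were among the 4, with fold enrichments of 33.0 and 21.3 at distal starts, and had further H3K4me3 of 16.2 and 25.2 outside the rule. TPM1, a tropomyosin gene, had 22.4 at an interval 5254 bp from its canonical TSS, where CTCF reached 29.3. CTNND1, which encodes p120-catenin, had 3.08 at the distal start and 11.6 elsewhere. Its distal interval did not pass the stricter limits (−log10 q-value 1.55). Among those outside the rule, RUNX1 (25.1) and PLEC (28.8) had intervals of 4000 bp or wider, and PDE4D (11) and ANK3 (24.2) overlapped H3K27me3. HNF4A, TP73, MITF, TCF7L2, TCF7 and TEAD1 had H3K4me3 within 5 kb of a coding TSS, at 7.92, 31.3, 15.9, 21.1, 22.6 and 34.4.

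At lncRNA genes 972 distal intervals were found, of which 650 (66.9%) passed the stricter limits. Of all distal intervals 43.8% passed, and of all H3K4me3 intervals 79.1%. The highest values belonged to duplicated segments: ENSG00000229178 had 59.0 within the SDHAP2 region of chromosome 3, ENSG00000287165 had 55.9, MIR1302-2HG had 50.8 and ENSG00000282807 had 43.1. The leading SDHAP1 interval (59.7) has 2 near-identical copies, and the MIR1302-2HG interval, which also covers the WASH7P pseudogene, has 5. All 5 leading lncRNA intervals thus have copies elsewhere in hg19, so reads at them may be shared, and how reads with several matches were placed is not given in the sources used here.

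Among 37 lncRNA genes with known names, 22 had a distal interval at an annotated start, 10 had H3K4me3 outside the rule and 5 had none. TUG1, in this list, is annotated as protein-coding in the release used. Of all annotated lncRNA genes 6.89% had a distal interval at a start, and 77.1% had no H3K4me3 there, so the listed genes, chosen as well known, were marked more often. Genes named as small nucleolar RNA hosts, spliced transcripts whose introns carry snoRNAs, had high values: SNHG17 had 38.6, SNHG7 36.8, SNHG16 28.0, SNHG1 27.4, SNHG15 26.4, SNHG6 23.7, SNHG12 22.6 and SNHG8 21.8. SNHG6 was also the widest of all distal intervals, at 3950 bp. Of the other listed hosts, SNHG5 (18.3) fell outside the rule with a width of 4042 bp, and GAS5 (18.6) and ZFAS1 (24.1) for lying within 5 kb of a coding TSS. All of these hosts were therefore marked, each above the lower quartile of promoter intervals. CTCF lay over 4 of the 8 distal SNHG intervals, near its share of all distal intervals, and was highest at SNHG17 (25.9) and SNHG7 (18.0). H3K36me3 lay over all 8, with fold enrichments from 4.11 to 7.05. It overlapped 6.66% of all distal intervals and 12.9% of those with an H3K4me3 fold enrichment over 20.

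Other genes of the same list covered a wider range. NORAD, which binds PUMILIO proteins, had 30.1 at an interval with 1 near-identical copy, and DANCR, a broadly expressed RNA, 24.4. LINC00511 had 28.3 and DLEU2 29.9. EPB41L4A-AS1 had 25.3 and KCNQ1OT1, the imprinted antisense transcript, 21.7. Lower values were found at UCA1 (13.6), JPX (12.9), NEAT1 (11.7), FTX (11.3) and CYTOR (10.2; 1 near-identical copy). H19, FIRRE and LINC-PINT were near the low end with 5.47, 5.39 and 3.98, and none of them passed the stricter limits there. LINC-PINT had a further H3K4me3 interval of 16.9 outside the rule. H19, the imprinted gene, also had CTCF (10.3) over its interval. The nuclear-speckle RNA MALAT1 (7.82) had an interval of 4548 bp, and TUG1, OIP5-AS1, CRNDE, HOTAIR, HOTTIP and FENDRR lay within 5 kb of a coding TSS. MEG3, LINC00460, TP53TG1, PANDAR and CASC15 had no H3K4me3 interval.

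Of 15 microRNA host genes, 8 had a distal interval, against 6.89% of all lncRNA genes, 4 had H3K4me3 outside the rule and 3 had none. MIR210HG, host of the hypoxia microRNA miR-210, had 32.1. MIR34AHG, whose microRNA is a known p53 target, had 26.4. MIR200CHG, host of the epithelial miR-200c and miR-141, had 24.1. MIRLET7BHG followed with 17.2, and MIR4435-2HG (8.38; 1 near-identical copy), MIR100HG (6.51), MIR181A1HG (5.69) and MIR222HG (3.79) were lower. The intervals of MIR181A1HG and MIR222HG did not pass the stricter limits. MIR17HG, host of the proliferation-linked miR-17-92 cluster, was highest at 37.6 but overlapped H3K27me3. MIR22HG (20.5) lay within 5 kb of a coding TSS, and MIR31HG (13.8) and MIR23AHG (16.8) were wider than the limit. MIR155HG, MIR99AHG and CARMN had none.

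**Figure D2:**
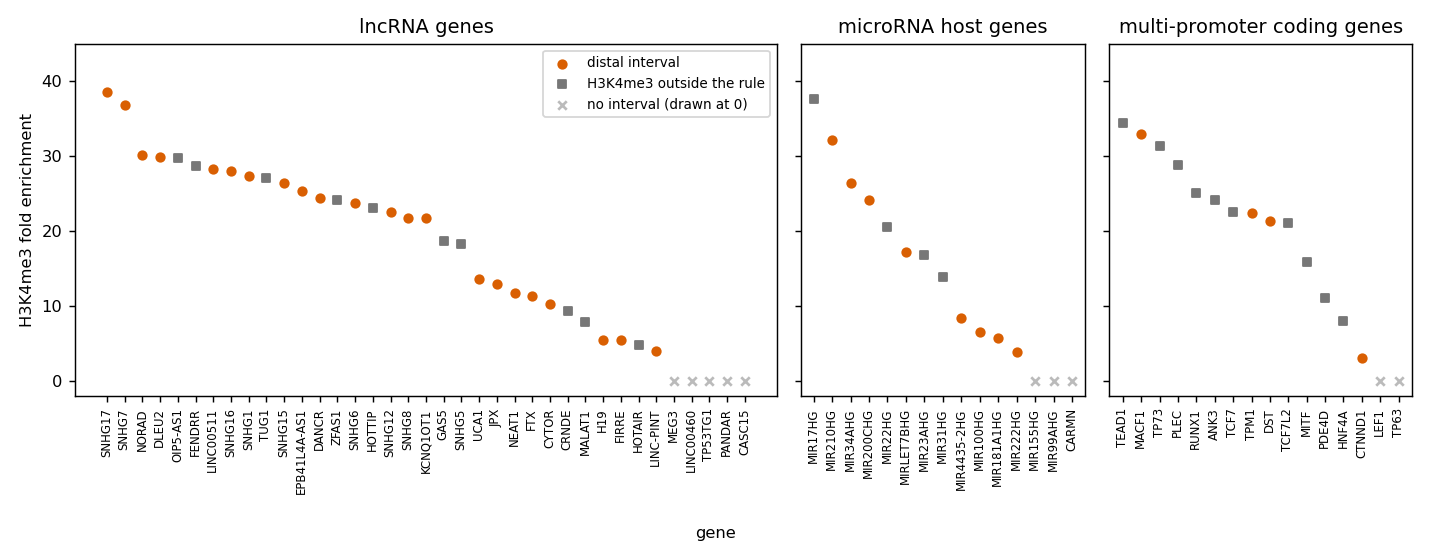
H3K4me3 fold enrichment at the annotated starts of the listed lncRNA genes (37), microRNA host genes (15) and multi-promoter coding genes (16). Circles are distal intervals, squares intervals outside the rule and crosses genes with no interval, drawn at 0; SNHG17 (38.6) and SNHG7 (36.8) are the highest listed lncRNA genes.

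Pseudogene starts stood apart from the other classes. Of 207 such distal intervals, 54.1% (interval 47.3 to 60.8%) had a near-identical copy elsewhere in hg19, against 12.8% of all distal intervals. H3K9Ac overlapped 78.7% (interval 72.7 to 83.8%) and H3K4me1 55.1% (interval 48.3 to 61.7%), the lowest shares of the 5 classes. The CpG-rich share of 73.9% equalled that of promoter intervals. After WASH8P, ENSG00000274378 had a fold enrichment of 42.6 and ENSG00000267295 had 39.9, and each of this chromosome 17 pair has 1 copy. RP11-152F13.3, with 36.7, has 6. AFG3L1P, a unitary pseudogene of a mitochondrial protease subunit, had 35.9 and no copy. It was the only one of the 5 leading pseudogene intervals without a copy.

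The 66 distal intervals at other RNA genes were mostly weak, and 18 (27.3%) passed the stricter limits, against 43.8% of all distal intervals. RP6-206I17.1, with 34.3, and ENSG00000279140, with 33.6, led the class. The first has 4 near-identical copies and is annotated under the older term lincRNA, a long non-coding RNA, and was therefore counted here rather than with the lncRNA genes. MIR203, a microRNA of epithelial differentiation, had 20.9 with H3K4me1 at 9.99, and its window held AP-1 letters. ENSG00000280211 had 15.5. RNU6ATAC, a small nuclear RNA of the minor spliceosome, had 13.9, with H3K4me1 at 7.72. At MIR203 and RNU6ATAC the H3K4me1 value was above its median over distal intervals, 5.14.

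Of the 2151 distal intervals with no annotated start, 1068 (49.7%, interval 47.5 to 51.8%) lay in no gene body and 789 (36.7%, interval 34.7 to 38.7%) within a protein-coding gene. Only 564 (26.2%) passed the stricter limits, against 43.8% of all distal intervals. Their median width was 686 bp. The strongest lay at chr17:79454387-79456007 with a fold enrichment of 41.5, in no gene body and 23.8 kb from the actin gene ACTG1. The next were chr3:197380280-197382704 (37.4; 2 near-identical copies), chr13:20175379-20177155 (35.9), chr1:2573202-2575102 (35.1, within TTC34) and chr19:17345390-17347032 (35.0, within the nuclear receptor gene NR2F6). All 5 overlapped H3K9Ac at 15.1 or more, H3K4me1 and CTCF. Of all 54 such intervals over a fold enrichment of 20, every one overlapped H3K9Ac and H3K4me1 and 42 overlapped CTCF, so the 5 were like others of their strength.

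Distal intervals lay in the bodies of 1578 protein-coding genes, of which 1311 held 1 and 54 held 3 or more. CROCC, the ciliary rootlet gene, held 9, with fold enrichments from 3.77 to 25.9. BCOR, a BCL6 corepressor gene on chromosome X, held 6, from 3.73 to 12.6. GSE1 also held 6, from 3.23 to 10.1, none of them with an annotated start. The distal interval farthest from any coding TSS lay 2154837 bp away at MIR924HG on chromosome 18, with a fold enrichment of 9.03. By chromosome, the distal share of H3K4me3 intervals was lowest on chromosome 11 (20.8%, interval 18.2 to 23.7%) and highest on chromosome Y (49.0%, interval 35.6 to 62.5%, 24 of 49). The chromosome Y count includes 5 distal intervals in a masked part, where sequence could not be read or searched for copies.

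H3K9Ac covered nearly all distal intervals. It overlapped 4022 of them (94.7%, interval 94.0 to 95.3%), against 98.0% of all H3K4me3 intervals and 99.8% of promoter intervals. The median H3K9Ac fold enrichment at these overlaps was 6.46 in distal and 12.6 in promoter intervals. With the stricter limits applied to H3K9Ac the distal share was 51.8%, against 93.7% of promoter intervals, so distal H3K9Ac was widespread but weak. Within distal intervals the Spearman correlation of H3K4me3 and H3K9Ac fold enrichment was 0.76 (n = 4022), and within promoter intervals 0.83 (n = 10921). These points are intervals of the same cells, and both ratios depend on local background.

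H3K4me1 overlapped 3689 distal intervals (86.8%, interval 85.8 to 87.8%), against 93.1% of all and 95.8% of promoter intervals. The share was lower, but the signal was not: the median H3K4me1 fold enrichment was 5.14 at distal and 4.45 at promoter intervals. Its correlation with H3K4me3 fold enrichment was -0.16 (n = 3689) in distal intervals and -0.01 (n = 10478) in promoter intervals. In the 739 distal intervals with AP-1 letters the median H3K4me1 fold enrichment was 5.80, against 4.99 in those without.

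H3K9Ac and H3K4me1 occurred together at most distal intervals. Without CTCF the pair was found at 2006 (47.2%), against 51.6% of promoter intervals. With CTCF it was found at 1638 (38.6%), against 44.1%. None of the 3 was found at 132 (3.11%), against 0.101% of promoter intervals. The 226 distal intervals without H3K9Ac had a median H3K4me3 fold enrichment of 3.27, and 1 of them passed the stricter limits. Of these 226, 34.5% (interval 28.6 to 40.9%) had a near-identical copy. The 559 without H3K4me1 had a copy in 34.0% (interval 30.2 to 38%). Distal intervals lacking either active mark were thus weaker, and more of them lay in repeated sequence.

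CTCF overlapped 1827 distal intervals (43.0%, interval 41.5 to 44.5%), close to the 45% of all H3K4me3 intervals. Its median fold enrichment was 9.89 at distal and 6.04 at promoter intervals. Within bands of H3K4me3 fold enrichment this difference was not uniform: under 5 the medians were 9.78 and 11, from 5 to 10 they were 12 and 8.44, from 10 to 20 they were 9.93 and 6.75, and over 20 they were 5.62 and 5.51. CTCF signal was thus clearly higher at distal intervals in the middle bands, close in the top band and lower under 5. With the stricter limits applied to CTCF, 27.9% of distal and 20.7% of promoter intervals overlapped it. Distal intervals with CTCF had a higher H3K4me3 fold enrichment (median 6.58) than those without (4.96), and 54.1% of them were CpG-rich against 34.8%.

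H3K36me3 overlapped 283 distal intervals (6.66%, interval 5.95 to 7.45%), against 12.9% of all and 15.4% of promoter intervals. The direction depended on H3K4me3 strength. Under a fold enrichment of 5, H3K36me3 overlapped 6.6% (interval 5.57 to 7.8%) of distal and 2.41% (interval 1.17 to 4.88%) of promoter intervals, and from 5 to 10 it overlapped 5.1% and 3.05%. From 10 to 20 the shares were 5.61% and 8.37%, and over 20 they were 12.9% (interval 10.1 to 16.4%) and 21.3% (interval 20.3 to 22.3%). Distal intervals thus had the higher share under 10 and the lower share from 10 upwards, and the cause was not tested. With the stricter limits applied to H3K36me3, 7 distal overlaps remained (0.165%), against 0.472% of all H3K4me3 intervals, and only 90 of the 40010 H3K36me3 intervals passed. H3K36me3 overlap was most frequent at other coding transcripts (9.04%, interval 7.29 to 11.2%) and least at other RNA genes (3.03%, interval 0.835 to 10.4%). Overlap with this gene-body mark was therefore uncommon even though 42.5% of distal intervals lay in a protein-coding gene body.

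Because distal intervals are weaker, the marks were also compared within bands of H3K4me3 fold enrichment. Under 5 there were 1910 distal and 291 promoter intervals, and over 20 there were 434 and 6423. H3K27me3, absent from distal intervals by the rule, overlapped 13.1% of promoter intervals under 5 and 14.8% from 5 to 10. H3K9Ac overlapped 89.0% (interval 87.5 to 90.3%) of distal and 93.8% (interval 90.4 to 96.1%) of promoter intervals under 5, and all of both over 20. H3K4me1 overlapped 83.2% and 84.5% under 5, and 98.6% of both over 20. The H3K9Ac gap between distal and promoter intervals thus remained under 5, and at higher H3K4me3 strength both marks differed little.

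CTCF differed within the higher bands. Under 5 it overlapped 36.2% (interval 34.1 to 38.4%) of distal and 30.6% (interval 25.6 to 36.1%) of promoter intervals, and these intervals overlap. From 5 to 10 it overlapped 44% (interval 41.2 to 46.9%) of distal and 34.6% (interval 31.4 to 38%) of promoter intervals, and over 20 it overlapped 61.3% (interval 56.6 to 65.8%) and 50.2% (interval 49.0 to 51.4%). Over all strengths CTCF overlapped 43.5% of distal intervals with no annotated TSS, 42.5% of those with an annotated TSS and 45.6% of those at lncRNA genes. Within each band the share was higher without an annotated TSS than with it, but under 5 the intervals overlap (34.0% with it, interval 30.3 to 38.0%). Among distal intervals with no annotated TSS it rose from 37.1% (interval 34.6 to 39.7%) under 5 to 49.7% from 5 to 10, 58.8% from 10 to 20 and 77.8% (interval 65.1 to 86.8%; 42 of 54) over 20. Strong H3K4me3 with no annotated start therefore coincided with CTCF more often than strong H3K4me3 at promoters did.

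**Figure D3:**
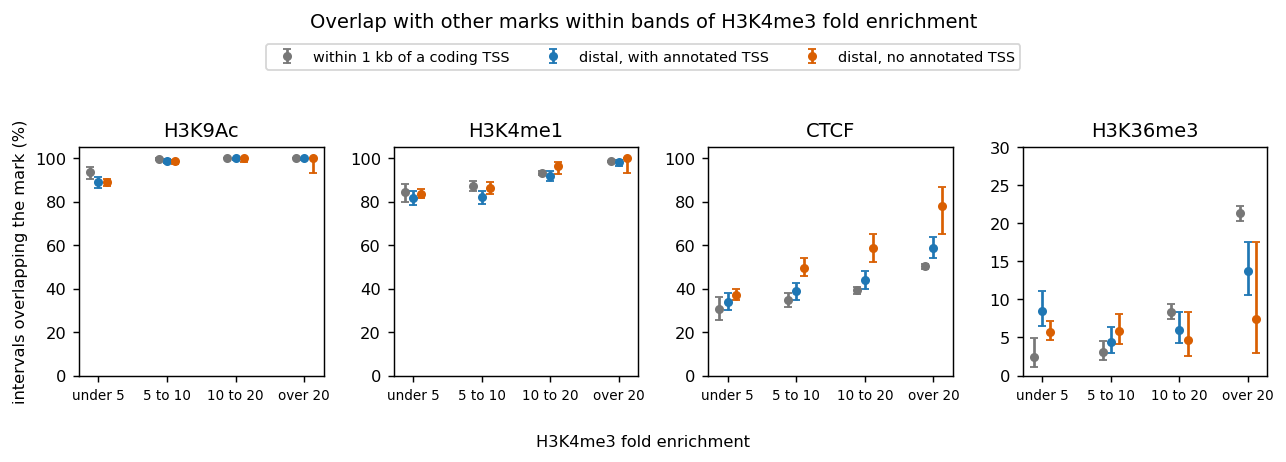
Share of H3K4me3 intervals that overlapped each mark, by band of H3K4me3 fold enrichment, for promoter intervals (grey), distal intervals with an annotated TSS (blue) and distal intervals without (orange); bars are 95% Wilson intervals, and the H3K36me3 axis ends at 30%. The CTCF share of distal intervals without annotated TSS reaches 77.8% over 20, against 50.2% of promoter intervals.

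Distal intervals were close to promoter intervals in GC content but less often CpG-rich. Sequence was read for 4243 distal intervals, and the other 5 lie in a masked part of chromosome Y. The median GC content was 57.5% (middle 50%, 50.4 to 64.1%), near the 58.6% of promoter intervals, while the median ratio of observed to expected CpG was 0.594 against 0.713. CpG-rich sequence, with GC over 50% and this ratio over 0.6, made up 43.1% (interval 41.6 to 44.6%) of distal intervals, against 64.5% of all and 73.9% of promoter intervals. H3K4me3 fold enrichment was 8.92 at the median in CpG-rich and 4.39 in CpG-poor distal intervals. CpG-rich distal intervals over a fold enrichment of 20 made up 83.9% of that band (interval 80.1 to 87.0%), and 81.4% of promoter intervals there were CpG-rich, so the strongest distal intervals had the composition of promoters. The Spearman correlation of H3K4me3 fold enrichment with GC was 0.32 (n = 4243) in distal and 0.11 (n = 10933) in promoter intervals, and GC can itself affect how sequence is recovered.

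Known motifs were searched on both strands of the central 500 bp, and no string of letters holds another. In intervals narrower than 500 bp the window extends beyond the interval. The narrowest distal interval was 282 bp, and under a fold enrichment of 5 the median distal width was 526 bp. A match is a description of the sequence. AP-1 letters (TGANTCA) were found in 739 distal intervals (17.4%, interval 16.3 to 18.6%), against 8.59% of all H3K4me3 intervals and 4.95% of promoter intervals. TATA letters (TATAAA) were found in 12% (interval 11 to 13%), against 7.22% of all, and TCF/LEF letters (ATCAAAG) in 4.08% (interval 3.52 to 4.72%), against 2.76%. Within bands of H3K4me3 fold enrichment the TCF/LEF difference was small or reversed. Under 5 the shares were 5.87% of distal and 5.52% of promoter intervals, and from 5 to 10 they were 3.87% and 3.56%. From 10 to 20 they were 1.96% and 2.62%, and over 20 they were 0.461% and 1.9%. For TATA letters the distal share was higher in each band under 20 (16.3% and 11.7% under 5). Over 20 it was lower (2.3% and 3.78%). The CTCF core motif was matched in 2.29% (interval 1.88 to 2.78%), against 0.938%. Of the 97 distal intervals with this core, 94 overlapped a CTCF interval.

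SP, ETS and CRE letters, typical of CpG-rich promoters, were less frequent in distal intervals as a whole. SP letters (GGGCGG) were found in 56.7% (interval 55.2 to 58.2%), against 72.9% of all, and ETS letters (CCGGAAG) in 10.3% (interval 9.44 to 11.3%), against 14.1%. CRE letters (TGACGTCA) were found in 1.18% (interval 0.895 to 1.55%) against 1.56%. Over a fold enrichment of 20 no deficit was seen, with SP letters in 85.9% (interval 82.4 to 88.9%) of distal and 83.7% of promoter intervals, ETS letters in 18.2% and 17.6%, and CRE letters in 2.3% and 1.77%. NRF1 letters (GCGCATGC) in 2.69% (interval 2.24 to 3.22%) against 3.13%, E-box letters (CACGTG) in 9.24% (interval 8.40 to 10.1%) against 9.6% and YY1 letters (AAGATGGC) in 4.86% (interval 4.25 to 5.54%) against 4.68% were near the background. For YY1 this rests on 1 repeat family, since outside the largest family the share was 2.90%. The YY1 share also differed by band. Over 20 it was 1.61% (interval 0.783 to 3.29%) of distal and 5.34% (interval 4.82 to 5.92%) of promoter intervals, and from 10 to 20 it was 2.75% and 4.69%. In the weaker bands the direction was the opposite, with 7.92% and 2.16% from 5 to 10 and 4.61% and 1.72% under 5. The largest family holds 86 of the 206 distal intervals with YY1 letters, at a median fold enrichment of 5.76. The shares by band were not computed without it.

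The AP-1 letters followed H3K4me3 strength, annotation and base composition. Their share fell from 26.1% (interval 24.2 to 28.1%) of distal intervals with a fold enrichment under 5 to 13.9% from 5 to 10, 7.84% from 10 to 20 and 5.30% (interval 3.56 to 7.83%) over 20. Promoter intervals had 11.7% (interval 8.51 to 15.9%) under 5 and 4.58% (interval 4.09 to 5.12%) over 20, so the shares were close in the strongest band. The share was highest, 31.4% (interval 28.8 to 34.0%), in distal intervals with neither an annotated TSS nor CTCF, and 12.1% (interval 10.1 to 14.3%) where CTCF overlapped. It was 24.3% (interval 22.6 to 26.1%) in CpG-poor and 8.31% (interval 7.13 to 9.66%) in CpG-rich distal intervals. Distal intervals with AP-1 letters had H3K9Ac in 97.8% and H3K4me1 in 92.0%, a CTCF share of 28.3%, and a median H3K4me3 fold enrichment of 4.0. Distal intervals with these letters were thus weaker in H3K4me3 than those without, which had a median of 6.14.

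**Figure D4:**
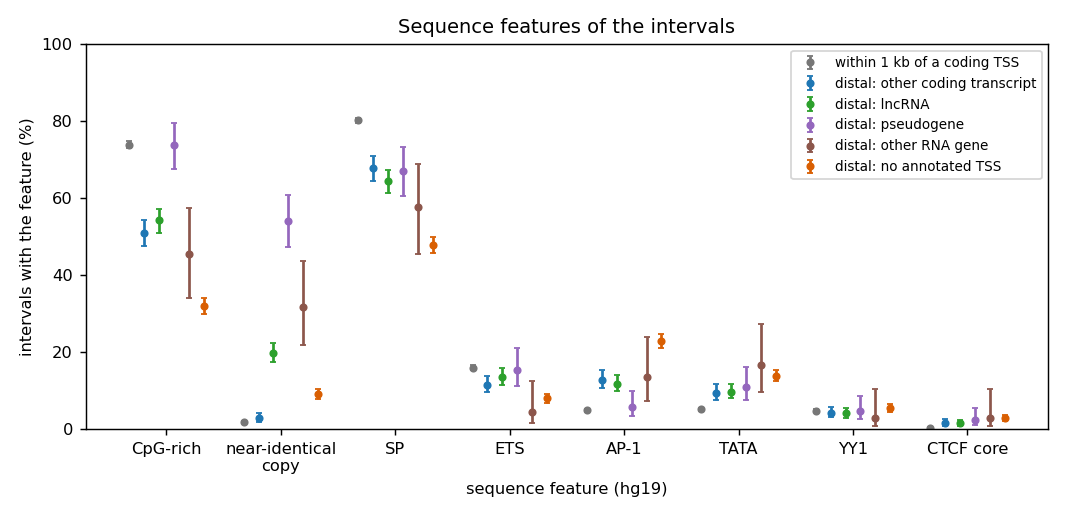
Share of intervals with each sequence feature in hg19 (CpG-rich, near-identical copy, or motif letters in the central window) for promoter intervals and for the 5 classes of distal intervals; bars are 95% Wilson intervals. AP-1 letters are most frequent in distal intervals with no annotated TSS (23%), and near-identical copies in those at pseudogenes (54.1%).

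Repeated sequence was more common among distal intervals than in the list as a whole. A near-identical copy, of at least 95% identity over at least 50% of the interval, was found elsewhere in hg19 for 544 distal intervals (12.8%, interval 11.8 to 13.9%), against 5.12% of all and 1.84% of promoter intervals. Over a fold enrichment of 20 the shares were 20.5% (interval 17.0 to 24.6%) and 1.4% (interval 1.14 to 1.72%). By class, the share was 2.82% at other coding transcripts, 19.8% at lncRNA genes, 54.1% at pseudogenes, 31.8% at other RNA genes and 9.08% with no annotated start. H3K4me1 overlapped 65.3% (interval 61.2 to 69.1%) of distal intervals with a copy and 90% (interval 89.0 to 90.9%) of those without. The part of multiply matching reads in these values was not tested.

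Distal intervals were also grouped by likeness to each other, in a step chosen after the data were seen. With at least 90% identity over at least 400 bp, 495 distal intervals (11.7%) fell into 118 families, of which 69 were pairs and 23 had 5 or more members. At 80% identity, tried first, there were 656 in 135 families. The largest family had 104 members at 90% and 108 at 80%, and all 104 were shared.

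The largest family was spread over 22 chromosomes and had a median fold enrichment of 5.76 (3.19 to 14.9). Of its 104 members, 101 overlapped H3K9Ac, 55 H3K4me1 (52.9%, interval 43.4 to 62.2%) and 4 CTCF. Outside the family H3K4me1 overlapped 87.7% of distal intervals. The YY1 letters were found in 86 members (82.7%) and in 2.90% of distal intervals outside, so 86 of the 206 distal intervals with these letters belong to this family. YY1 is a zinc-finger factor that can activate or repress promoters, and no repeat annotation was used here. Sequence like its most connected member was found at 3247 places in hg19, of which 144 (4.43%) lay under an H3K4me3 interval, so most places alike in sequence were not called.

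Smaller families differed from it and from each other. Family 2 had 25 members on 6 chromosomes, 13 of them on chromosome 8, with a GC content of 72.3% and a median fold enrichment of 9.76, and all 25 overlapped CTCF, H3K9Ac and H3K4me1. Family 3 had 13 members within one stretch of chromosome X, from 114960300 to 115005113, where the nearest coding TSS is that of PLS3. All 13 overlapped CTCF, and their median fold enrichment was 4.16. All 15 places alike in hg19 overlapped an H3K4me3 interval. These places were found by likeness to 1 of the 13 members, and reads may be shared among them. Whether each place carried H3K4me3 was therefore not tested. Family 4, with 12 members, overlapped H3K4me1 at 1 and CTCF at 1, although 9 overlapped H3K9Ac.

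Other families were strong. Family 5 had 10 members with a median fold enrichment of 18.6, family 8 had 7 members with 25.2, and family 9 had 7 members between 31.1 and 39.9 on chromosome 15. Family 12 holds 5 intervals at loci of the WASH family, most of them near chromosome ends, with a median of 50.8. Family 19, with 5 members at pseudogenes near DUX4 and FRG2B, was the opposite: its median was 3.02, all 5 overlapped CTCF and H3K4me1, and none overlapped H3K9Ac. Family 14 resembled the largest in its many matches, with 754 places alike in hg19 of which 9 had H3K4me3. Repeated distal intervals were therefore not of a single kind.

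**Figure D5:**
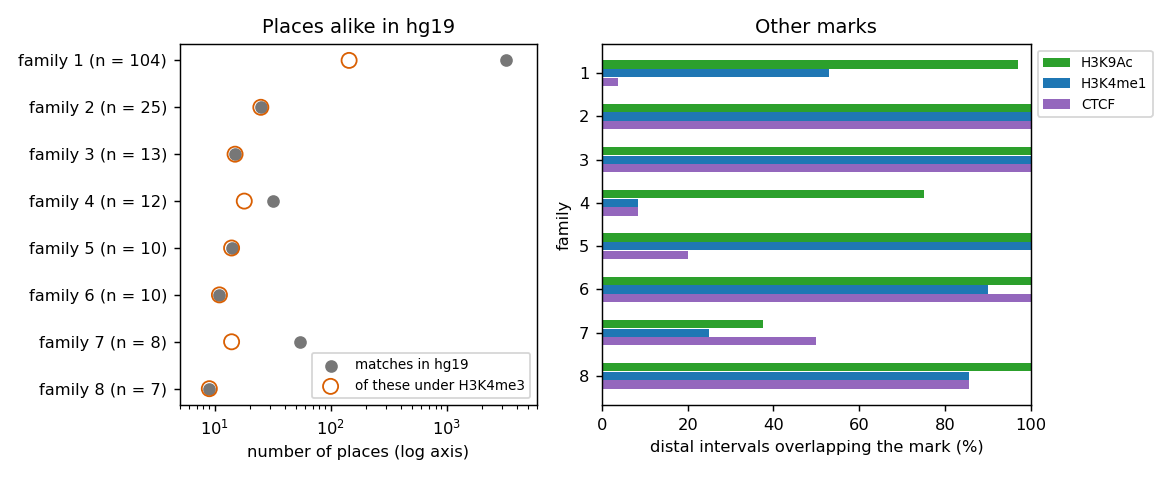
The 8 largest families of distal intervals alike in sequence: left, places alike in hg19 and those under an H3K4me3 interval (log axis); right, share of each family's distal intervals that overlapped H3K9Ac, H3K4me1 and CTCF. Family 1 has 3247 places alike, 144 of them with H3K4me3, whereas all 25 places of family 2 have it.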

How the data were processed

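The labels of 7 libraries name 1 antibody each, and lists of 6 marks were used. H3K27Ac was not analysed here. The authors aligned reads to hg19 and called peaks in each library with MACS2 in broad mode (cutoff 0.1), according to their methods. The libraries carried molecular identifiers that allow PCR duplicates to be removed. The submitters' processing notes name BWA 0.7.12, SAMtools 0.1.19, bcl2fastq 2.20.0.442 and MACS 1.4.2. The labels differ on whether reads were single or paired. The deposited fold enrichment of an interval is its signal divided by the local background, a ratio on a linear scale. The deposited −log10 q-value also describes the whole interval. The lists include intervals under the limits of the methods, which were a q-value under 1e-03 with a fold enrichment over 2 for H3K4me1, H3K27me3 and H3K27Ac and a q-value under 1e-10 with a fold enrichment over 5 for other histone marks. The latter limits were applied to CTCF here. The depth of the libraries is not given in the lists.

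Distances and overlaps (at least 1 bp) were computed from the positions. GENCODE 44 lifted to hg19 gave 20163 protein-coding genes, 19881 of them with a canonical transcript. Copies were searched with minimap2 2.31-r1302 and families with blastn 2.17.0. Tables were made with pandas 2.3.3 and numpy 2.4.6 in Python 3.11.15, sequences read with pyfaidx 0.9.0.4 and samtools 1.23.1, correlations computed with scipy 1.17.1, families linked with networkx 3.6.1 and figures drawn with matplotlib 3.10.9. Overlap counts with 5 lists were checked with bedtools 2.31.1, and 0 differed.

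The distal intervals, gene lists and classes were chosen with earlier results of these data known. The rule for named genes took the 5 intervals of highest H3K4me3 fold enrichment in each of 5 classes, the widest, the farthest from a coding TSS, the 3 protein-coding genes holding most of them, and 3 lists of lncRNA, microRNA host and multi-promoter genes. Marker lists held 10 epithelial and colon genes and 9 genes of other cell types, of which PECAM1 was not found in the annotation used. A further gene in each of 2 lists is not reported here. Each mark had 1 library, so no test was made, and main shares carry 95% Wilson intervals.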

Additional observations from a re-analysis of the deposited data

How the results depend on the processing

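Of 38 recomputed values for 8 results, 18 stayed within the interval of the reported value (counts within 1.5 times) and 20 moved; the cause was not tested, except that stricter limits leave fewer intervals by construction. Requiring the stricter limits for H3K4me3 left 1861 distal intervals, with an annotated TSS at 69.7%, H3K9Ac at 99.9%, H3K4me1 at 91.3%, CTCF at 50%, a median GC content of 60.3% and copies at 14.6%. Applying to the other mark its own limits gave 51.8% for H3K9Ac, 75.9% for H3K4me1 (the looser limits), 27.9% for CTCF and 0.165% for H3K36me3. The share with an annotated TSS was 41.2% with the start inside the interval, 62.0% within 5 kb, and 37.8% with every coding transcript in the rule. H3K4me1 covered at least 50% of the interval at 80.5%, and copies at 90% identity were found for 15.7%. The number of distal intervals was 3094 with every coding transcript, 3665 beyond 10 kb, 4626 beyond 2.5 kb, 4421 with only H3K27me3 intervals past their limits left out, and 4270 with no width limit.

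Further alternatives were chosen after seeing the data. Without the H3K27me3 condition there were 4528 intervals, and the shares were 93.8% for H3K9Ac, 86.3% for H3K4me1, 43.9% for CTCF, 7.22% for H3K36me3, 49.1% for an annotated TSS and 13.1% for copies. Without the intervals that have a copy there were 3704, with 47.2% for an annotated TSS, 96.0% for H3K9Ac and 90% for H3K4me1. The depth of each library is unknown from the lists, so weak intervals may be missed or gained with depth, and no replicate shows how far these counts would vary.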
